A study of Mus musculus with 22 samples.

Results

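Kidney RNA from mice given cisplatin plus KW6002 was compared with kidney RNA from mice given cisplatin alone. The comparison holds 11 of the 22 kidney libraries of the study, 6 from co-treated mice and 5 from cisplatin-treated mice, chosen by their labels. The other libraries served as reference levels and in the estimate of the spread: 5 came from vehicle mice, which received neither drug, and 6 from mice given KW6002 alone at the same dose and on the same days as the co-treated mice. Each library came from 1 male C57Bl6/J mouse of 8 to 10 weeks. Cisplatin was injected i.p. at 3 mg/kg on 6 days running from day 0 in both groups, and only the co-treated mice also received KW6002 (istradefylline) at 3 mg/kg daily from day -5 to day 7. On day 8, 72 hours after cisplatin ended, the kidneys were collected. Whole kidney was sampled, so the values are averages over all cell types of the organ. The question put to the data was which transcripts differ when blockade of the adenosine receptor A2AR is added to cisplatin.

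Cisplatin is a platinum compound that crosslinks DNA, and it enters proximal tubule cells from the blood through organic cation and copper transporters. The proximal tubule reclaims most of the filtered sodium, phosphate, glucose, amino acids, and protein, and its injured cells lose transporters and switch on genes such as Havcr1 (kidney injury molecule 1) and Lcn2 (neutrophil gelatinase-associated lipocalin). Adenosine signals through several receptors, and KW6002 blocks the A2AR, which is encoded by Adora2a and raises cAMP.

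Libraries of the cisplatin group held 32807796 to 37562014 counts, and those of the co-treated group 28142763 to 34726619. Levels are given as CPM, the counts of a gene relative to all counts of its library after TMM scaling, and a log2 fold change is always the co-treated minus the cisplatin group, with its standard error (n = 6 and 5) and an adjusted p from edgeR's quasi-likelihood test. One co-treated library, replicate 6, held RNA of the adrenal cortex: Cyp11b1, the last enzyme of corticosterone synthesis, had 542 counts there and 0 or 1 in the other 10 libraries. The adrenal enzymes Cyp21a1 and Cyp11a1 had 508 and 323 counts in that library and at most 3 in any of the others. Fat markers also differed between kidneys. The mean log2 CPM of 10 fat genes was 4.38 to 5.78 in the cisplatin and 0.26 to 4.33 in the co-treated kidneys, and the lowest value was that of co-treated replicate 2. Within that list 7 of 10 genes were lower, and none was higher. Lep, the fat cell hormone leptin, was at 5.67, 0.427, 2.505, 2.35 and 0.793 CPM in the 5 cisplatin kidneys and at 0 to 0.0959 CPM (median 0.0633) in the co-treated kidneys, while Retn and Lpl, which belong to the same list, had log2 fold changes of 0.11 and -0.14 and did not pass the test. Ucp1, the uncoupling protein of brown fat, had a log2 fold change of -3.02 ± 0.96 (adjusted p = 0.010). The part of adherent fat in the results below was not tested beyond a fit with the fat marker level as a covariate.

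**Figure D1:**
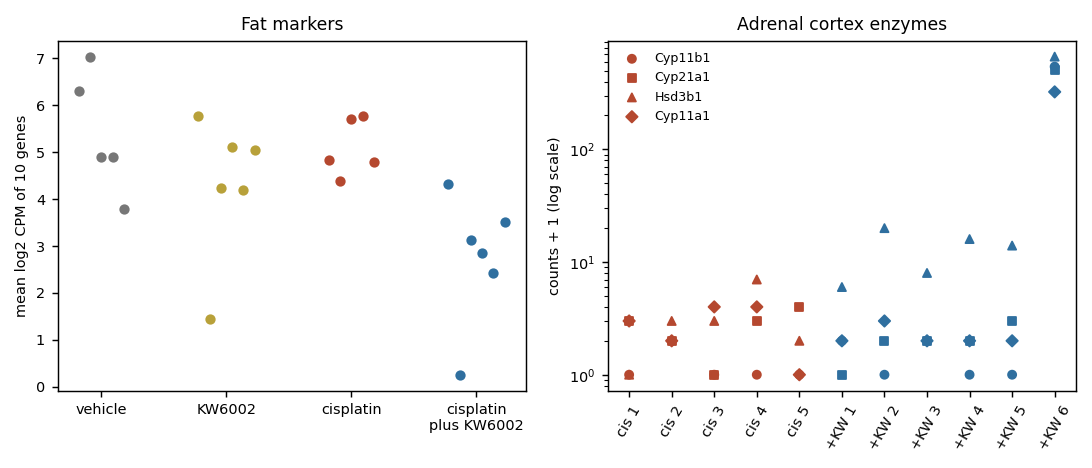
Left, mean log2 CPM of the 10 fat marker genes in each of the 22 kidneys, by group. Right, counts plus 1 (log scale) of 4 adrenal cortex enzymes in each of the 11 kidneys compared, where co-treated replicate 6 stands apart at 323 to 665 counts.

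The groups differed widely. Of 17131 genes tested, 4900 (28.6%) were higher and 4664 (27.2%) were lower in the co-treated kidneys at an adjusted p below 0.05. With the added demand of a change beyond 2-fold (a log2 fold change beyond 1) and an adjusted p below 0.01, 796 genes (4.65%) were called as higher and 970 (5.66%) as lower. The median called change was 2.82-fold upwards and 2.67-fold downwards, and 219 genes rose and 194 fell by more than 4-fold. In 673 of the genes called higher and 858 of those called lower, every co-treated kidney lay beyond every cisplatin kidney, against 19.3% (higher), 18.5% (lower), and 37.8% (either direction) of all tested genes. Many of the called genes were scarce in 1 of the groups: 372 of the 796 had a median below 1 CPM in the cisplatin kidneys, and 444 of the 970 called lower had one in the co-treated kidneys. Leaving out co-treated replicate 6 gave 730 higher and 915 lower calls, and the fat marker level as a covariate gave 722 and 700.

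**Figure D2:**
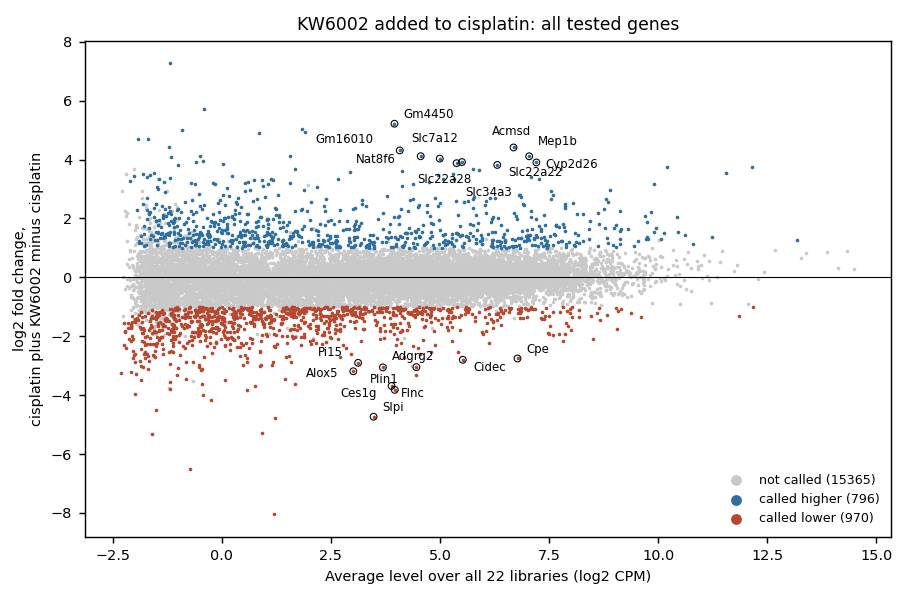
Each dot is 1 of 17131 tested genes, placed by its average level over all 22 libraries (log2 CPM) and its log2 fold change in cisplatin plus KW6002 minus cisplatin. The 796 genes called higher are blue, the 970 called lower are red, and circles name called genes in either direction, among those of the largest change whose average log2 CPM reached 3 and whose groups did not overlap.

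The genes that fell the furthest had mixed functions. Slpi, an inhibitor of leukocyte proteases (chr2:164354070-164389095), was at 74.2, 17.5, 57.3, 49.1 and 12.8 CPM in the 5 cisplatin kidneys and at 0.720 to 2.48 CPM (median 1.503) in the co-treated kidneys (log2 fold change -4.73 ± 0.51, adjusted p = 7.3e-08), beside 1.958 ± 1.09 CPM (mean ± SD) in the 5 vehicle kidneys. Cisplatin replicates 2 and 5 were the lowest of their group. Genes of this set were picked to have no overlap between the groups. Flnc, which encodes the actin crosslinker filamin C, was at 89.9, 35.7, 60.3, 56.6 and 32.8 CPM with cisplatin and at 2.95 to 6.04 CPM (median 4.27) with KW6002 added (log2 fold change -3.69 ± 0.24, adjusted p = 4.3e-11). Alox5, the 5-lipoxygenase that starts leukotriene synthesis, was at 35.3, 27.4, 31.2, 29.6 and 22.8 CPM against 1.599 to 5.64 CPM (median 3.31) (log2 fold change -3.19 ± 0.23, adjusted p = 1.3e-10). Cpe, a prohormone-processing carboxypeptidase, was at 415, 286, 329.8, 308 and 271 CPM against 36.8 to 60.8 CPM (median 45.8) (log2 fold change -2.76 ± 0.17, adjusted p = 1.4e-11), with a vehicle level of 40.6 ± 6.27 CPM. Other genes of this set were the peptidase inhibitor Pi15 (-2.90 ± 0.26), the adhesion receptor Adgrg2 (-3.06 ± 0.23), the carboxylesterase Ces1g (-3.82 ± 0.25), and the lipid droplet genes Plin1 (-3.05 ± 0.71) and Cidec (-2.80 ± 0.62). The vehicle level of Ces1g, 20.2 ± 5.86 CPM, was as high as that of the cisplatin kidneys, 11.4 to 22.8 CPM. Plin1 and Cidec are fat markers, and the mean log2 CPM of the fat list was 3.78 to 7.04 in vehicle kidneys against 4.38 to 5.78 with cisplatin.

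A gene outside the naming rule, picked after its values were seen, had the most negative fitted change of all. Crabp1, a cellular retinoic acid binding protein, had 654, 287, 381, 318 and 65 counts in the cisplatin kidneys and 0 to 2 in each co-treated kidney. No fold is given, since the co-treated counts lie under the limit of 3 counts, and the vehicle mean was 0.0282 CPM.

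Proximal tubule transporters and enzymes made up most of the set that rose the furthest. Acmsd, which diverts a tryptophan metabolite away from NAD synthesis (chr1:127729413-127767978), was at 3.596, 5.22, 3.94, 3.91 and 11.1 CPM in the cisplatin kidneys and at 76.5 to 145 CPM (median 122) in the co-treated kidneys (log2 fold change 4.41 ± 0.29, adjusted p = 5.5e-11), near its vehicle level of 168 ± 28.8 CPM. Mep1b, the beta subunit of the brush border protease meprin, was at 0.320, 1.51, 3.04, 4.20 and 4.76 CPM against 33.7 to 86.9 CPM (median 39.0) (log2 fold change 4.11 ± 0.37, adjusted p = 5.6e-09). For both genes cisplatin replicate 1 was the lowest kidney and replicate 5 the highest of its group. This set, too, was limited to genes without overlap between the groups. Slc34a3, a sodium-phosphate cotransporter, was at 0.480, 0.980, 1.52, 1.44 and 3.06 CPM against 13.5 to 35.2 CPM (median 22.2) (log2 fold change 3.91 ± 0.29, adjusted p = 2.6e-10), and Cyp2d26, a cytochrome P450, was at 4.502, 9.52, 8.13, 10.1 and 15.5 CPM against 106 to 227 CPM (median 117) (log2 fold change 3.90 ± 0.25, adjusted p = 2.3e-11). The other members were the solute carriers Slc7a12 (4.03 ± 0.50), Slc22a28 (3.88 ± 0.38), and Slc22a22 (3.82 ± 0.36), the N-acetyltransferase family gene Nat8f6 (4.11 ± 0.33), and the less studied Gm4450 (5.22 ± 0.25) and Gm16010 (4.31 ± 0.25). Gm16010 is antisense to Spsb4, and since strand use in counting is not stated their reads cannot be told apart. Slc22a28, Nat8f6, and Cyp2d26 belong to clustered families with similar copies, so their counts are uncertain.

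Among 12 proximal tubule markers, 11 were higher in co-treated kidneys and none was lower, with a median log2 fold change of 1.89 beside 0.005 over all tested genes. Slc34a1, the main renal sodium-phosphate cotransporter, was at 57.0, 114, 188, 222 and 573 CPM in the cisplatin kidneys and at 2341 to 4518 CPM (median 2750.0) in the co-treated kidneys (log2 fold change 3.73 ± 0.38, adjusted p = 3.2e-08), with 7585 ± 499.5 CPM in vehicle kidneys. Slc5a2, the glucose transporter SGLT2, was at 26.9, 54.2, 52.8, 55.0 and 112 CPM against 242 to 463 CPM (median 341) (log2 fold change 2.55 ± 0.24, adjusted p = 6.7e-09). Slc22a8, the organic anion transporter OAT3, was at 34.6, 80.4, 95.1, 109.7 and 140.4 CPM against 342 to 645 CPM (median 389.6) (log2 fold change 2.25 ± 0.25, adjusted p = 1.3e-07). In all of them the cisplatin kidneys spread widely, replicate 1 being the lowest and replicate 5 the highest, and still did not reach the lowest co-treated kidney. Lrp2, the endocytic receptor megalin, was at 527.9, 481, 535.6, 582 and 747 CPM against 1226 to 1828 CPM (median 1467) (log2 fold change 1.36 ± 0.11, adjusted p = 1.1e-09), well under its vehicle level of 3637 ± 336 CPM. Slc7a13, an amino acid transporter of the last proximal segment, was at 3.44, 6.93, 6.502, 6.85 and 8.16 CPM against 22.8 to 86.7 CPM (median 42.0) (log2 fold change 2.97 ± 0.28, adjusted p = 8.6e-09), with 864 ± 162 CPM in vehicle kidneys. Gatm, which makes the creatine precursor guanidinoacetate, had a log2 fold change of 2.30 ± 0.11 and Ass1, of arginine synthesis, one of 1.64 ± 0.11. Slc22a6, the organic anion transporter OAT1, was the member that did not pass (log2 fold change 0.14 ± 0.10, adjusted p = 0.24): it was at 467, 683, 511, 542 and 693 CPM in the cisplatin and at 548 to 814 CPM (median 602) in the co-treated kidneys. In whole kidney, more cells of a type and more RNA per cell cannot be told apart.

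Nephron identity transcription factors, a list not limited to the proximal tubule, moved less than these genes, with 8 higher and 2 lower of 18 (median 0.29). Hnf4a had a log2 fold change of 0.57 ± 0.06 (adjusted p = 7.1e-08), while the transcription factor Maf had 1.06 ± 0.10 and the homeobox gene Emx1 1.35 ± 0.11.

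Transport lists differed in how far they moved. Among organic ion transporters 16 of 20 tested genes were higher and 1 was lower, with a median log2 fold change of 2.05, and the mean log2 CPM of the list was 3.01 to 4.31 in the cisplatin and 5.22 to 5.90 in the co-treated kidneys. Slc22a29 had the largest value in the list (log2 fold change 4.95 ± 0.29, adjusted p = 6.9e-12), at 0.0799 to 0.283 CPM with cisplatin and 3.77 to 7.42 CPM (median 5.58) with KW6002 added. Slc22a2, the organic cation transporter OCT2 through which cisplatin enters tubule cells, was at 79.4, 122, 104.8, 119 and 142 CPM against 158 to 232 CPM (median 184) (log2 fold change 0.76 ± 0.11, adjusted p = 3.9e-06). Slc31a1, the copper transporter CTR1 and another cisplatin entry route, rose slightly (log2 fold change 0.30 ± 0.05, adjusted p = 1.0e-05), and Slc31a2 was lower (log2 fold change -0.63 ± 0.08, adjusted p = 1.4e-06). On the export side, Slc47a1, the MATE1 extruder of organic cations and platinum, was at 193, 192, 199, 207 and 266 CPM against 399.7 to 518 CPM (median 472) (log2 fold change 1.15 ± 0.08, adjusted p = 6.8e-11). Abcc2, an apical multidrug exporter, overlapped between groups and had 0.45 ± 0.10 (adjusted p = 0.00061), and its vehicle level was lower than both at 639 ± 45.1 CPM. Abcc6 rose (2.68 ± 0.17) and Abcc3 fell (-1.67 ± 0.15), so efflux and copper transporters split into 8 higher and 6 lower of 17. Among amino acid transporters of the proximal tubule 13 of 18 were higher, among them Slc7a12, Slc7a13, and Slc7a7 (2.92 ± 0.18), the basolateral cationic amino acid exchanger, and 2 were lower.

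Brush border and uptake genes were higher in 11 of 17 and 7 of 10 tested members, with medians of 0.46 and 0.41. Xpnpep2, an aminopeptidase, and Treh, trehalase, rose (2.04 ± 0.22 and 1.59 ± 0.15), and Anpep, aminopeptidase N, fell (log2 fold change -0.55 ± 0.09, adjusted p = 1.9e-05). Glucose and phosphate transport genes split into 5 higher and 6 lower of 13: beside the rises of Slc34a1, Slc34a3, and Slc5a2, the sugar transporter Slc5a10 was at 396, 462, 411, 453 and 425 CPM in cisplatin kidneys against 76.1 to 163 CPM (median 99.3) in co-treated kidneys (log2 fold change -1.92 ± 0.14, adjusted p = 2.6e-10), and Slc34a2 fell as well (-0.87 ± 0.12).

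**Figure D3:**
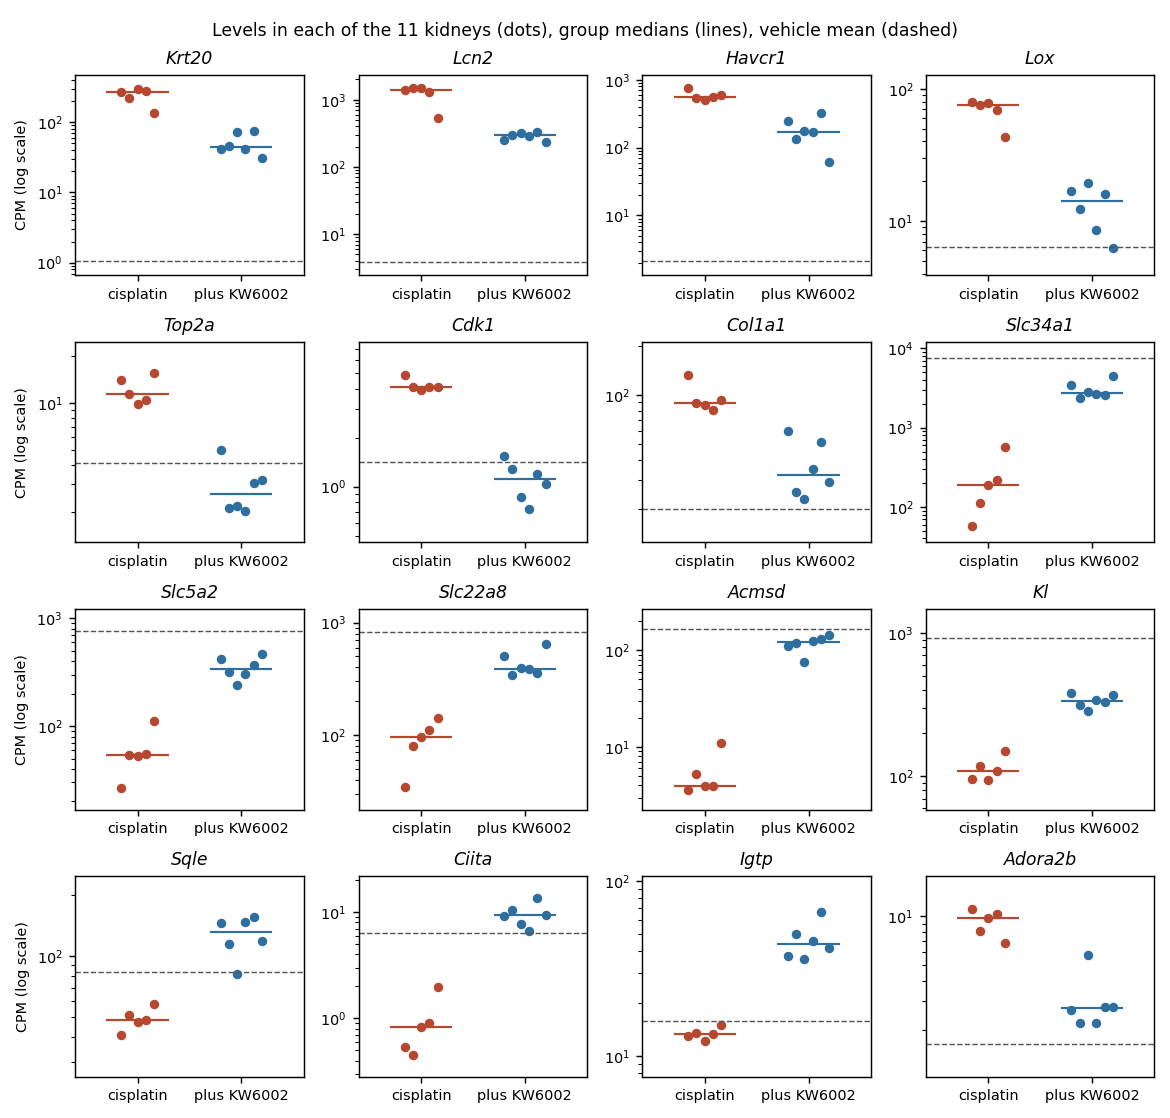
CPM (log scale) of 16 genes in each of the 5 cisplatin (red) and 6 co-treated (blue) kidneys, with the group median as a line and the mean of the 5 vehicle kidneys dashed. Injury, division, and matrix genes of the upper rows lie lower in every co-treated kidney than in any cisplatin kidney, and the tubule genes from Slc34a1 to Kl lie higher.

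Injury markers were lower in 16 of 18 tested members and higher in none, with a median log2 fold change of -1.11. Krt20, a keratin of injured proximal tubule, was at 265, 224, 298, 279 and 136 CPM in the cisplatin kidneys and at 30.9 to 76.1 CPM (median 43.7) in the co-treated kidneys (log2 fold change -2.23 ± 0.22, adjusted p = 1.4e-08), beside 1.06 ± 0.537 CPM in vehicle kidneys. Lcn2 was at 1391, 1479, 1482, 1309 and 539.5 CPM against 237 to 333 CPM (median 296) (log2 fold change -2.10 ± 0.22, adjusted p = 6.0e-08), and cisplatin replicate 5 stood at well under the level of its group. Havcr1 was at 745, 530.5, 505, 548 and 587 CPM against 61.8 to 319.9 CPM (median 172) (log2 fold change -1.65 ± 0.27, adjusted p = 1.8e-05), the lowest co-treated kidney being replicate 6, and its vehicle level was 2.10 ± 0.549 CPM. For all of them the co-treated levels were under every cisplatin kidney and over the vehicle level. Spp1, osteopontin, was at 12702, 11406, 11649.7, 12023 and 10899.7 CPM against 5122 to 6572 CPM (median 5807) (log2 fold change -1.02 ± 0.07, adjusted p = 1.5e-10). Clu, clusterin, changed less (log2 fold change -0.59 ± 0.10, adjusted p = 5.0e-05), and Vim, vimentin, did not pass (log2 fold change -0.33 ± 0.20, adjusted p = 0.17).

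Lists of keratins, annexins, and contractile genes also held more lower than higher members, and the cell types behind this were not tested. Simple keratins and vimentin were lower in 7 of 9 members, Krt18 having -1.23 ± 0.12 and Krt19 -1.17 ± 0.23. Annexins and S100 proteins were lower in 7 of 16, led by Anxa3 (log2 fold change -1.87 ± 0.11, adjusted p = 5.0e-12) and S100a6 (-1.62 ± 0.16). Filamins and contractile genes were lower in 13 of 20 with 2 higher, among them Zyx (0.38 ± 0.07), a focal adhesion protein. Claudins and cadherins were mixed, with 8 lower and 4 higher of 18: Cldn4 fell (-1.23 ± 0.10), and Cldn16, of the thick ascending limb, and Cldn10 rose (1.44 ± 0.15 and 0.74 ± 0.09).

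Mitosis genes were lower in 23 of 25 members, with a median log2 fold change of -1.70. All 23 were called, against 5.66% of all tested genes called lower. Top2a, the topoisomerase that untangles chromosomes, was at 14.04, 11.5, 9.89, 10.5 and 15.4 CPM in the cisplatin and 2.03 to 4.96 CPM (median 2.60) in the co-treated kidneys (log2 fold change -2.07 ± 0.26, adjusted p = 5.2e-07), with 4.09 ± 1.67 CPM in vehicle kidneys. Cdk1, the kinase that starts mitosis, was at 4.88, 4.09, 3.94, 4.09 and 4.08 CPM against 0.725 to 1.53 CPM (median 1.11) (log2 fold change -1.93 ± 0.23, adjusted p = 2.3e-07), with 1.42 ± 0.602 CPM in vehicle kidneys. Most co-treated kidneys were thus under the vehicle mean for these genes, and co-treated replicate 1 was the highest of its group for both. The vehicle kidneys differed among themselves. The mean log2 CPM of the mitosis list was 0.38 to 0.94 in vehicle replicates 1 to 3 and -0.05 and 0.07 in replicates 4 and 5. In the co-treated kidneys it was -0.36 to 0.56, within reach of the vehicle values. Mki67, the Ki-67 antigen, was at 13.03, 10.3, 9.35, 9.79 and 15.4 CPM against 1.65 to 5.98 CPM (median 2.98) (log2 fold change -1.87 ± 0.28, adjusted p = 6.6e-06). Prc1, of the spindle midzone, and the kinase Aurkb had the largest falls in the list (-2.37 ± 0.29 and -2.30 ± 0.37). Kif23 and Nusap1, with log2 fold changes of -0.48 and -0.23, did not pass.

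DNA replication genes did not share this size of change. Of 24, 7 were lower and 1 was higher, with a median of -0.12. Rrm2, of nucleotide reduction, fell (log2 fold change -0.94 ± 0.14, adjusted p = 6.8e-06), and Pcna, the sliding clamp, did not pass (-0.08 ± 0.05). The share of DNA replication genes that were lower, 7 of 24, is near the 27.2% of all genes.

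Promoters of mitosis genes often hold a CHR element, read here as TTTGAA, and CCAAT boxes. In RefSeq promoters (GRCm38.p6, 250 bases before to 50 after each start), TTTGAA was found on either strand in 17 of 23 windows of the mitosis list (73.9%) and in 12.4% of all 15687 windows, and CCAAT in 19 of 23 (82.6%) and in 36.9%. The stretches of Cdk1 and Top2a are shown because both genes fell and both hold the 2 motifs (capitals, either strand).
Cdk1, minus strand of chr10:69352863-69353012: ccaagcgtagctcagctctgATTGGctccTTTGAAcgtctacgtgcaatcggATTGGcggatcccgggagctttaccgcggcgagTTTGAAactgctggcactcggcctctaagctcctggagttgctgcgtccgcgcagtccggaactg
Top2a, minus strand of chr11:99024190-99024389: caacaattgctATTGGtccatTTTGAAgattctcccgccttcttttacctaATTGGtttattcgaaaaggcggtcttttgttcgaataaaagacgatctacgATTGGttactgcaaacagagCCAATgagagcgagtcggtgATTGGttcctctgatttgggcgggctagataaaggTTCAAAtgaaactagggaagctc
These are shares of letters, with no test, and a match does not show binding.

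**Figure D4:**
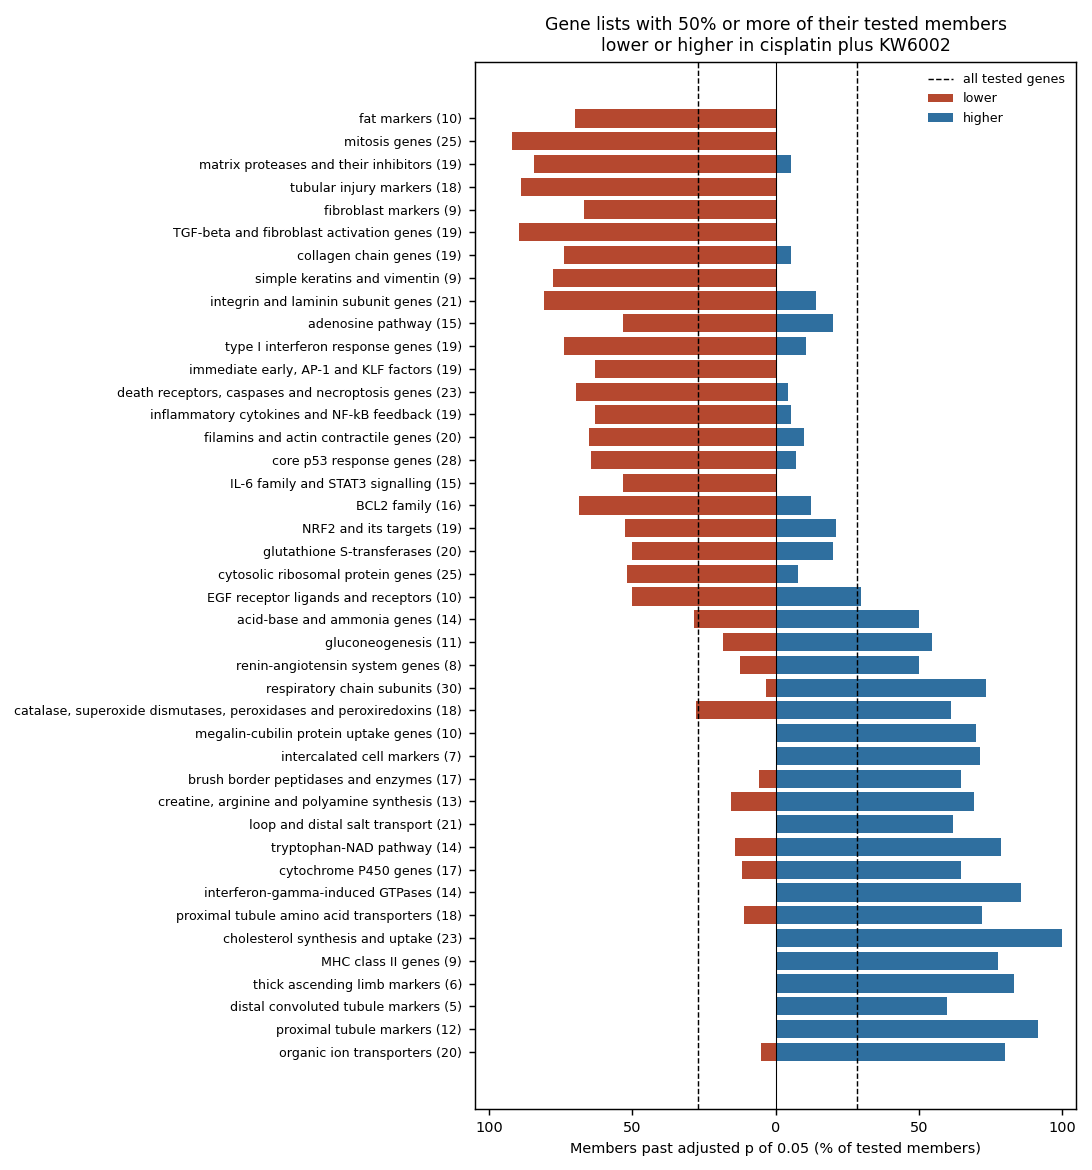
Share of tested members (number in brackets) that were lower (red, to the left) or higher (blue, to the right) at an adjusted p below 0.05, for each list with 5 or more tested members of which 50% or more were lower or higher. Dashed lines mark the shares of all tested genes, 27.2% lower and 28.6% higher.

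Matrix and fibroblast genes were lower as groups. Matrix proteases and their inhibitors were lower in 16 of 19 members (median -1.39), TGF-beta and fibroblast activation genes in 17 of 19 (median -0.96), integrin and laminin subunits in 17 of 21, and collagen chains in 14 of 19. Col1a1, a chain of fibrillar collagen, was at 132, 88.7, 86.4, 81.0 and 92.7 CPM in the cisplatin and at 23.1 to 60.6 CPM (median 32.2) in the co-treated kidneys (log2 fold change -1.36 ± 0.29, adjusted p = 0.00035). Fn1, fibronectin, was at 131, 84.2, 87.8, 88.3 and 97.3 CPM against 32.3 to 76.3 CPM (median 41.6) (log2 fold change -1.05 ± 0.29, adjusted p = 0.0037), and its vehicle level was 63.2 ± 24.8 CPM. For both genes cisplatin replicate 1 was the highest kidney of all. Lox, which crosslinks collagen, was at 80.2, 76.0, 78.3, 69.0 and 43.0 CPM against 6.22 to 19.6 CPM (median 14.1) (log2 fold change -2.39 ± 0.26, adjusted p = 8.8e-08). Adamts4, an aggrecanase, had -2.06 ± 0.27, the cell-matrix protein Ccn1 -1.73 ± 0.23, the integrin subunit Itgb3 -1.79 ± 0.18, and Mmp13, a collagenase, went the other way (1.36 ± 0.33) at levels of 0.126 to 0.340 CPM and 0.172 to 0.831 CPM (median 0.619). Col27a1 also fell (-1.89 ± 0.20), but its vehicle level of 217 ± 58.0 CPM lay within the range with cisplatin, 178 to 225 CPM, and the basement membrane chain Col4a4 rose (0.29 ± 0.08).

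Fibroblast markers were lower in 6 of 9 members, with mean log2 CPM of 5.98 to 6.28 in the cisplatin and 4.77 to 5.87 in the co-treated kidneys. With the fat marker level as a covariate, 4 of the 9 were lower, and Fn1 did not pass (adjusted p = 0.17), while 13 of 19 matrix proteases and inhibitors (median -0.84), 23 of 25 mitosis genes, 14 of 18 tubular injury markers, and 12 of 19 collagen chains were lower in that fit.

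Inflammation did not move as a whole. Inflammatory cytokines and NF-kB feedback genes were lower in 12 of 19 and IL-6 family and STAT3 genes in 8 of 15, but chemokines had 4 lower and 2 higher of 19, shares no larger than those of all genes. Tnfrsf1b, a TNF receptor, fell (log2 fold change -1.56 ± 0.22, adjusted p = 2.7e-06), and so did Cd14 (log2 fold change -1.58 ± 0.14, adjusted p = 3.1e-09), a lipopolysaccharide coreceptor. Il6 was scarce, at 0.480, 1.05, 1.33, 1.15 and 0.170 CPM against 0.0686 to 0.826 CPM (median 0.236), and just passed (log2 fold change -1.20 ± 0.49, adjusted p = 0.042); with DESeq2 its adjusted p was 0.10. Ccl2, a monocyte chemokine, was at 3.52, 1.63, 2.19, 3.13 and 1.87 CPM against 0.608 to 2.12 CPM (median 1.06) (log2 fold change -0.98 ± 0.35, adjusted p = 0.020). Tnf, which encodes tumor necrosis factor, did not pass (log2 fold change 0.58 ± 0.37, adjusted p = 0.19) at a median of 0.471 CPM in co-treated kidneys, and Cxcl1, a neutrophil chemokine, and Icam1, an adhesion molecule, lay just over the threshold (log2 fold change -0.36 ± 0.16, adjusted p = 0.053, and log2 fold change -0.30 ± 0.13, adjusted p = 0.055). These scarce or borderline genes depended on single libraries. Il6 lost its call without cisplatin replicate 2, 3, or 4 or without co-treated replicate 1, 2, 3, or 6 (adjusted p = 0.064 to 0.13), and Ccl2 without cisplatin replicate 1 or 4 (0.069 and 0.054). Cxcl1 passed without cisplatin replicate 2 or co-treated replicate 2, 4, or 5 (0.019 to 0.049), Icam1 without cisplatin replicate 2 or co-treated replicate 5 (0.048 and 0.039), and Tnf without co-treated replicate 2 (0.042). C3, the central complement protein, fell (log2 fold change -1.09 ± 0.33, adjusted p = 0.0077), with co-treated replicate 3 inside the cisplatin range, whereas Cfb, complement factor B, rose (log2 fold change 2.22 ± 0.24, adjusted p = 7.4e-08). With the fat marker level as a covariate C3, Il6, and Ccl2 no longer passed (adjusted p = 0.32, 0.51, and 0.43), and Tnf passed (0.0062).

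Immune cell markers were mixed, and the share of macrophage markers that were lower was near the 27.2% of all genes. The mean log2 CPM of the macrophage list was nevertheless lower in every co-treated kidney, at 3.48 to 4.19 against 4.44 to 4.90 with cisplatin. Its median log2 fold change was -0.58, and -0.015 with the fat marker level as a covariate. Of 11 macrophage markers 3 were lower and 1 was higher: Cd68, a lysosomal protein of macrophages, was at 67.8, 50.7, 67.1, 61.7 and 48.3 CPM against 9.94 to 21.4 CPM (median 12.6) (log2 fold change -2.14 ± 0.43, adjusted p = 0.00021), Itgam had -1.19 ± 0.34, and Csf1r, the macrophage growth factor receptor, had 0.23 ± 0.09. Of 4 tested neutrophil markers 2 were lower, with Csf3r at -0.83 ± 0.32 (adjusted p = 0.033). T cell markers had 3 higher and 2 lower of 7, Trac rising from 0.276 to 0.613 CPM to 0.767 to 2.58 CPM (median 1.38) (log2 fold change 1.80 ± 0.35, adjusted p = 0.00013) and Cd4 falling (log2 fold change -1.07 ± 0.31, adjusted p = 0.0054). The call of Csf1r was lost without cisplatin replicate 2, 3, or 4 or co-treated replicate 1 or 5 (adjusted p = 0.067 to 0.11), and that of Csf3r without cisplatin replicate 1, 3, or 4 or co-treated replicate 2, 3, or 4 (0.052 to 0.081). Itgam, Csf3r, and Cd4 did not pass with the fat marker covariate (0.21, 0.35, and 0.13), under which 2 macrophage markers were lower and 1 was higher, and none of the neutrophil markers passed.

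The interferon programmes moved in opposite directions. GTPases induced by interferon gamma, which act against intracellular pathogens, were higher in 12 of 14 members and lower in none (median 0.77). Igtp was at 13.03, 13.6, 12.2, 13.3 and 15.1 CPM in cisplatin kidneys and at 35.9 to 66.7 CPM (median 43.5) in co-treated kidneys (log2 fold change 1.78 ± 0.13, adjusted p = 1.9e-10), and the vehicle level, 15.8 ± 2.60 CPM, was close to that with cisplatin. Tgtp1 was at 0.400, 0.477, 0.426, 0.455 and 0.425 CPM against 2.68 to 6.72 CPM (median 3.04) (log2 fold change 3.10 ± 0.28, adjusted p = 5.2e-09), above the vehicle level of 1.48 ± 0.361 CPM, though Tgtp1 has a near-identical neighbour and its counts are uncertain. Cxcl10, an interferon-induced T cell chemokine, rose (log2 fold change 0.90 ± 0.18, adjusted p = 0.00017).

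Type I interferon response genes went the other way: 14 of 19 were lower, 2 were higher, and the median was -0.53. Ifit3 fell (log2 fold change -0.87 ± 0.14, adjusted p = 1.3e-05), and Rsad2 rose (log2 fold change 0.43 ± 0.13, adjusted p = 0.0086). With the fat marker level as a covariate 9 of the 19 were lower, and Rsad2 did not pass (adjusted p = 0.13).

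MHC class II genes, which present peptides to helper T cells, were higher in 7 of 9 members. Ciita, their master regulator, was at 0.533, 0.452, 0.826, 0.910 and 1.98 CPM against 6.61 to 13.7 CPM (median 9.31) (log2 fold change 3.35 ± 0.30, adjusted p = 4.7e-09), so that all co-treated kidneys lay over the vehicle mean (6.40 ± 2.64 CPM). Cd74, the invariant chain, was at 18.8, 29.9, 28.1, 27.7 and 38.2 CPM against 50.9 to 103 CPM (median 62.3) (log2 fold change 1.30 ± 0.19, adjusted p = 3.6e-06), under its vehicle level of 137 ± 31.7 CPM. Cisplatin replicate 5 was the highest of its group in both. The MHC class I list was split, 3 higher and 3 lower of 11: Nlrc5, a class I regulator, rose (0.49 ± 0.17), and B2m, the class I light chain, fell (-0.43 ± 0.09). The Nlrc5 call was lost without cisplatin replicate 3 (adjusted p = 0.051).

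Cholesterol synthesis and uptake was the one list of which every member was higher, 23 of 23, with a median log2 fold change of 0.90. In 19 of them every co-treated kidney lay above every cisplatin kidney, against 19.3% of all tested genes. Sqle, the squalene epoxidase, was at 40.8, 51.2, 47.5, 48.7 and 58.3 CPM in cisplatin kidneys and at 81.2 to 155 CPM (median 132) in co-treated kidneys (log2 fold change 1.36 ± 0.18, adjusted p = 1.0e-06), beside 83.8 ± 24.9 CPM in vehicle kidneys. Cyp51, the lanosterol demethylase, had 1.78 ± 0.14 and stayed under its vehicle level of 259 ± 55.2 CPM. The sterol element TCACNCCAC occurred in 1 of 18 windows of the list (Hmgcs1) and in 1.20% of all windows.

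Among other metabolic genes, the tryptophan to NAD pathway was higher in 11 of 14 tested members. Beside Acmsd these were led by Kynu, kynureninase, at 2.72, 3.52, 4.18, 4.20 and 9.85 CPM against 35.5 to 49.7 CPM (median 45.5) (log2 fold change 3.18 ± 0.32, adjusted p = 2.5e-08), and Qprt, which makes a nicotinic acid nucleotide from quinolinate, at 11.5, 10.5, 11.6, 12.0 and 19.7 CPM against 73.4 to 89.6 CPM (median 86.3) (log2 fold change 2.69 ± 0.11, adjusted p = 2.4e-13). Kynu lay above and Qprt near the vehicle level, 14.5 ± 3.02 CPM and 90.02 ± 4.03 CPM. Nnmt, which methylates nicotinamide, fell (-1.31 ± 0.34), though not with the fat marker covariate (adjusted p = 0.27). Cytochrome P450 genes were higher in 11 of 17, Cyp4a12a having 2.60 ± 0.32 and Cyp2j13 2.80 ± 0.32, and Cyp1b1 fell (-0.98 ± 0.18). Respiratory chain subunits were higher in 22 of 30 by small amounts (median 0.27), for example Ndufs1 (log2 fold change 0.67 ± 0.06, adjusted p = 1.8e-09) and Sdha (0.64 ± 0.05).

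Fatty acid oxidation did not move one way: 6 were higher and 7 lower of 25, with a median of -0.05. These shares are near those of all tested genes, 28.6% higher and 27.2% lower, and are no result about the list. Acsm2, a medium-chain acyl-CoA synthetase, was at 51.3, 79.4, 68.6, 76.2 and 183 CPM against 823 to 1442 CPM (median 965) (log2 fold change 3.55 ± 0.25, adjusted p = 1.1e-10). The regulator Ppara fell (log2 fold change -0.59 ± 0.10, adjusted p = 3.5e-05), while Cpt1a and Acadm did not pass (0.13 ± 0.08 and 0.11 ± 0.11). Gluconeogenesis genes were higher in 6 of 11 and lower in 2. Pck1, the rate-controlling enzyme of gluconeogenesis, fell (log2 fold change -1.30 ± 0.20, adjusted p = 1.1e-05) and glycerol kinase Gk rose (1.23 ± 0.13).

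Vitamin D and Klotho genes had 3 higher and 2 lower of 7. Cyp27b1, which activates vitamin D, was at 10.98, 10.7, 11.7, 10.2 and 31.1 CPM in cisplatin kidneys and at 66.0 to 117 CPM (median 76.4) in co-treated kidneys (log2 fold change 2.44 ± 0.27, adjusted p = 9.4e-08), above its vehicle level of 12.5 ± 4.65 CPM. Cyp24a1, which degrades it, was at 91.3, 47.3, 90.5, 107 and 152 CPM against 170.2 to 394 CPM (median 352) (log2 fold change 1.74 ± 0.30, adjusted p = 3.4e-05). Kl, the FGF23 coreceptor, was at 96.4, 118, 94.0, 109 and 149.7 CPM against 288 to 382 CPM (median 336) (log2 fold change 1.58 ± 0.10, adjusted p = 3.7e-11), under its vehicle level of 923 ± 72.2 CPM, and the vitamin D receptor Vdr fell (-0.54 ± 0.07).

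Beyond the proximal tubule, thick ascending limb markers were higher in 5 of 6, distal convoluted tubule markers in 3 of 5, and intercalated cell markers in 5 of 7. Egf, made in the distal nephron, was at 59.0, 78.0, 69.6, 76.2 and 96.6 CPM against 199.7 to 533.9 CPM (median 222) (log2 fold change 2.05 ± 0.25, adjusted p = 3.4e-07), and its vehicle level was far higher at 2538 ± 510.0 CPM. Slc12a3, the thiazide-sensitive cotransporter, was at 34.6, 80.3, 61.8, 74.3 and 79.4 CPM against 147 to 370.0 CPM (median 232) (log2 fold change 1.88 ± 0.20, adjusted p = 5.6e-08), again far under 1597 ± 24.5 CPM. Slc12a1, the loop diuretic target, had 1.54 ± 0.22, the chloride-bicarbonate exchangers Slc4a1 and Slc26a4 had 2.12 ± 0.24 and 1.03 ± 0.15, and Umod, uromodulin, did not pass (log2 fold change 0.21 ± 0.13, adjusted p = 0.17). Principal cell and podocyte lists had medians of 0.08 and 0.07, with 2 of 7 and 1 of 7 members higher and 1 and 2 lower, and Aqp2 did not pass (0.08 ± 0.23).

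**Figure D5:**
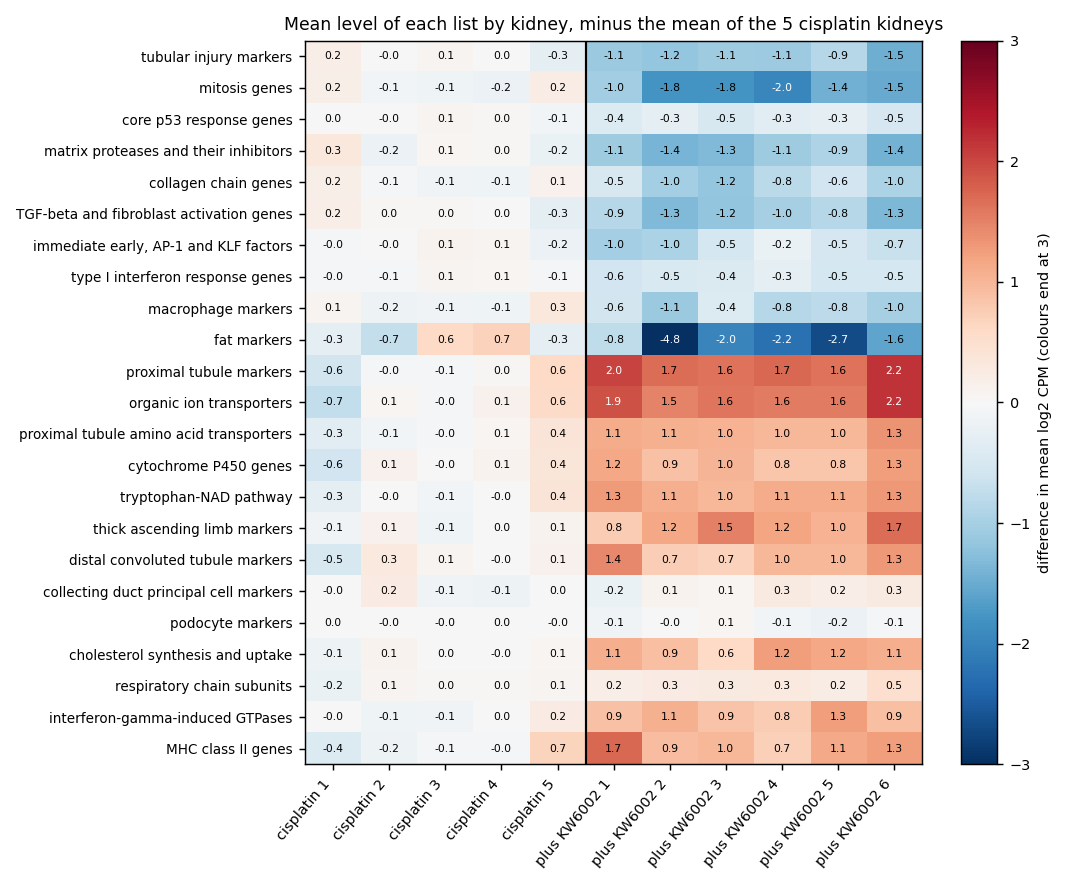
Mean log2 CPM of 23 lists in each of the 11 kidneys, minus the mean of the 5 cisplatin kidneys. Cisplatin replicate 1 lies low and replicate 5 high for proximal tubule lists, co-treated replicate 6 is the highest for them, and fat markers vary most between co-treated kidneys, beyond the colour scale in replicate 2.

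Of 10 genes for EGF receptor ligands and receptors, 5 were lower and 3 were higher. The ligand gene Tgfa was at 40.3, 35.0, 34.0, 34.4 and 27.2 CPM against 8.36 to 14.6 CPM (median 11.3) (log2 fold change -1.59 ± 0.11, adjusted p = 1.1e-10), and the ligand gene Hbegf fell as well (-0.60 ± 0.13). The receptor gene Erbb4 rose (0.76 ± 0.17). Immediate early genes were lower in 12 of 19 members, Fosl1 at 25.1, 15.1, 23.9, 24.4 and 15.01 CPM against 3.72 to 9.34 CPM (median 5.24) (log2 fold change -1.84 ± 0.23, adjusted p = 5.9e-07).

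The p53 response, which crosslinked DNA sets off, was lower in 18 of 28 members, but by less than the injury markers (median -0.42). Cdkn1a, the p21 cell cycle inhibitor, was at 874, 851, 948, 923 and 809 CPM against 501 to 699 CPM (median 652) (log2 fold change -0.51 ± 0.20, adjusted p = 0.032), still far above 11.1 ± 2.89 CPM in vehicle kidneys. Its call was lost without any one of 4 libraries, cisplatin replicates 3 and 4 and co-treated replicates 3 and 6, with adjusted p values of 0.059 to 0.069, and with the fat marker covariate (0.076). Mdm2, the p53 ubiquitin ligase, had -0.54 ± 0.07, the death receptor Fas -0.44 ± 0.08, and Gdf15, a stress cytokine, -1.14 ± 0.13. Btg2, an antiproliferative gene, fell the most (log2 fold change -1.64 ± 0.13, adjusted p = 4.5e-10), and the proapoptotic Bax rose slightly (log2 fold change 0.22 ± 0.06, adjusted p = 0.0056), a call lost with the same covariate (0.071). BCL2 family genes were lower in 11 of 16 and death receptor, caspase, and necroptosis genes in 16 of 23, with Mlkl, the effector of necroptosis, at -1.38 ± 0.12.

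NRF2 and its targets, an antioxidant programme, were lower in 10 of 19 members with 4 higher. Slc7a11, the cystine importer, was at 16.2, 4.09, 8.42, 8.35 and 4.98 CPM against 0.716 to 1.82 CPM (median 1.39) (log2 fold change -2.71 ± 0.31, adjusted p = 1.8e-07), and Srxn1, sulfiredoxin, fell (-1.33 ± 0.14). Nfe2l2, which encodes NRF2, and Hmox1, heme oxygenase 1, had -0.58 ± 0.06 and -0.66 ± 0.23, and Nqo1 did not pass (-0.05 ± 0.14), though it passed as lower with the fat marker covariate (adjusted p = 0.027). Catalase and its relatives were higher in 11 of 18 members and lower in 5, Cat having log2 fold change 0.28 ± 0.05, adjusted p = 0.00016.

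Adenosine pathway genes were lower in 8 of 15 tested members. Adora2a, the target of KW6002, was at 8.36, 7.08, 6.37, 6.66 and 5.55 CPM in cisplatin kidneys and at 3.74 to 4.78 CPM (median 4.16) in co-treated kidneys (log2 fold change -0.70 ± 0.13, adjusted p = 0.00010), beside 3.76 ± 0.873 CPM in vehicle kidneys. Adora2b, the low-affinity receptor, was at 11.1, 8.14, 9.75, 10.4 and 6.82 CPM against 2.20 to 5.76 CPM (median 2.70) (log2 fold change -1.60 ± 0.22, adjusted p = 2.1e-06), with 1 co-treated kidney, replicate 3, above the others. Both receptors thus had no overlap between groups. Ada, adenosine deaminase, fell (-0.94 ± 0.13), and so did the ectonucleotidase Entpd2 (-1.06 ± 0.12), while Slc29a2, a nucleoside transporter, rose (0.57 ± 0.14).

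Core clock genes passed in 2 of 14 members, both lower (Clock, -0.29 ± 0.07, and Csnk1e, -0.38 ± 0.08), and Arntl and Per2 did not pass (0.53 ± 0.28 and 0.17 ± 0.10). Clock output genes were higher in 4 of 10, Hlf having log2 fold change 1.44 ± 0.11, adjusted p = 5.3e-10. The E-box CACGTG and the D-box TTANGTAA occurred in 4 and 0 of 10 windows of the output list and in 9.29% and 1.64% of all windows. Proteasome subunits and the unfolded protein response passed in 9 of 20 and 7 of 20 members, shares below the 55.8% of all genes, and ribosomal protein genes were lower in 13 of 25 by small amounts (median -0.19). Ppia, often a reference for quantitative PCR, rose (log2 fold change 0.59 ± 0.10, adjusted p = 2.6e-05), but it has many processed copies, so its counts are uncertain.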

How the data were processed

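Kidney RNA-Seq libraries (poly(A) selected, stranded, single reads) were made by the authors. Reads were demultiplexed with bcl2fastq 2.17.1.14, aligned to the mouse genome (mm10) with STAR, and counted per gene with HTSeq-count 0.6.1p1 in union mode. The deposited values are raw counts of uniquely aligned reads per gene in 1 table of 22 libraries. Whether counting used strand is not given in the sources used here. The table's 66 unnamed empty columns were not used. Symbols and coordinates (mm10) came from the GENCODE M21 annotation and matched 32824 of 32858 gene identifiers, and the other 34 held 0.00459% of the counts.

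Counts of all 22 libraries were fitted with edgeR 4.0.16 (R 4.3.3, limma 3.58.1), TMM scaling, a mean for each group, and the quasi-likelihood test, with Benjamini-Hochberg adjustment over 17131 genes. filterByExpr (count minimum 10, total minimum 15, 5 libraries, CPM above 0.306) removed 15727 genes, and the tested genes held 99.9% of the counts. The biological coefficient of variation was 0.129. A gene is called where its log2 fold change is beyond 1 with an adjusted p below 0.01, and a single gene or list member passes, or is written as higher or lower, at an adjusted p below 0.05. Tests are two-sided. Each library is a separate mouse, and the sources used here name no batch. The column headers carry mouse numbers, which were 524 to 538 in the kidneys compared. Vehicle kidneys had numbers 337 to 340 or 521 and 523, and kidneys with KW6002 alone 345 to 347 or 525 to 535. What this split stands for is not stated. The vehicle levels pool both number series, and the part of the split in them was not tested. No pair of libraries of a group was a duplicate, since 17.8 to 50.8% of genes differed beyond sampling noise. In counts simulated for this contrast over 17131 genes, 95 of 100 genes changed by 1.5 and 98 of 100 changed by 2 (log2) were recovered with 1 other gene called. The changed genes were drawn from those averaging above 1 CPM, and every other gene had the same mean in all groups. Far fewer genes changed than in the data, and no fat or adrenal RNA was simulated. Recovery of scarcer genes was not tested.

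Named genes are the 10 largest called changes upwards and downwards, where the average log2 CPM reached 3 and the groups did not overlap, key genes of the injured kidney, and, in each of 74 gene lists (1128 of 1133 entries matched), up to 3 members with the largest change in the direction of most and up to 2 in the other, some of which are given by counts alone, and a few named by this rule are not reported here. A few more were named after their values were seen: Crabp1, and the genes that complete a short count. The members and lists were chosen with earlier results of these data known. List medians and counts carry no test, and mean log2 CPM used a prior count of 2. Promoters are RefSeq windows (GRCm38.p6). Alternatives were other scaling, filters, thresholds, only the 2 groups, DESeq2 1.42.0, a replicate block, the fat marker level as a covariate, and each of the 11 libraries left out.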

Additional observations from a re-analysis of the deposited data

Results flagged for a closer look

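Libraries that stood apart from the rest of their group were sought in each gene named above. The measure, taken on log2 CPM, was the gap of the highest or lowest kidney to its nearest neighbour over the range of the group. A kidney was flagged at a value (Dixon's ratio) above 0.71 for 5 and 0.625 for 6 kidneys. Of 362 groups examined, 35 held such a kidney, and 15 of the 35 were cisplatin replicate 5. For a single gene chance gives about 1 in 20. The genes share the same kidneys and are not independent, so the count of 35 was not tested against chance. The values below are CPM.

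Cisplatin replicate 5 was the highest of its group for the extruder Slc47a1 (266), the amino acid exchanger Slc7a7 (48.7), C3 (1925), Nlrc5 (12.0), B2m (359.6), Qprt (19.7), Cpt1a (712), Cyp27b1 (31.1), and Cfi (15.9). It was the lowest for the injury marker Lcn2 (539.5), the matrix genes Lox (43.0), Ccn1 (124), and Itgb3 (9.77), and for Cd14 (30.4) and Flt1 (154). Without it, 873 genes were called higher and 1017 lower. Cisplatin replicate 1 was the highest for Cdk1 (4.88) and Col1a1 (132) and the lowest for Slc7a13 (3.44). Cisplatin replicate 2 was the highest for Ppara (199.9) and the lowest for Cxcl1 (29.7).

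Among co-treated kidneys, replicate 6, which carries adrenal RNA, was the highest for the adrenal genes Star (25.04) and Akr1b7 (10.1), for the tubule genes Slc7a12 (51.3), Slc31a1 (209), and Aqp1 (1812), and for Sdha (779), and the lowest for Hmox1 (71.7). Replicate 1 was the lowest for Cyp24a1 (170.2) and Aqp2 (283). Replicate 2 was the highest for Cyp27b1 (117) and the lowest for Tnf (0.0941). Replicate 3 was the highest for Adora2b (5.76) and the lowest for Ces1g (0.720) and Cyp4a12a (25.6), and replicate 5 was the highest for Slco2a1 (113). The cause of these differences was not tested.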

How the results depend on the processing

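The number of genes called higher (796) was 714 to 873 and that called lower (970) was 883 to 1077 as each library was left out. Demanding 10 counts in every library, which tests fewer genes, left 516 higher, and testing for a change above 1 on the log2 scale (glmTreat) left 267 higher and 214 lower. Of the 74 lists, 44 had 50% or more of their members lower or higher (38 to 48 as each library was left out), 23 of them lower (19 to 24) and 21 higher (18 to 24). With the fat marker level as a covariate 14 lists were lower, and 635 of the 970 genes called lower were called again. The fat level did not overlap between the groups, so this covariate takes up part of the group difference. Of 58 key genes 42 passed (39 to 44).

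Of 181 named genes 168 passed, 148 of them under every alternative that gave a value. The fat covariate ended 14 calls: those given above, those of the fat genes Lep (adjusted p = 0.055) and Ucp1 (adjusted p = 0.83), and that of Hk2 (adjusted p = 0.68). Another scaling, filter, or tool, or a fit of only the 2 groups, ended at most 3 calls each, and leaving out 1 library at most 5. With that covariate Vim turned to 0.079 and Aqp2 to -0.43. Nqo1 was -0.091 to 0.040 and Star -0.055 to 1.75 as each library was left out, changing sign without co-treated replicate 1 and replicate 6, respectively. The median of EGF receptor ligands and receptors turned from -0.17 to 0.18 with 10 counts demanded in every library. No other named gene changed sign. In all, 12 list medians changed sign under some alternative, 7 of them with the fat covariate, and 9 of the 12 had medians of -0.09 to 0.12. The others were those EGF receptor genes and, with the fat covariate, complement genes (-0.56 to 0.001) and the 1 muscle gene (-1.16 to 0.23). With DESeq2 the median over 2 of the 4 adrenal markers was -0.62, against 0.74.

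Replicate numbers did not pair the samples: the correlation between same-numbered kidneys was -0.157 to 0.077 over 5 numbers, and 1 of 5 matched its own number best. With the replicate block 754 genes were higher, 961 were lower, 39 lists passed 50%, 21 of them lower and 18 higher, and 41 key genes passed, and 3 named genes lost their call. At counts under the limit of 3, as for Crabp1 in co-treated kidneys, no fold can be given at this depth.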

Other observations

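Gene lists that the comparison above leaves out are given by their counts and examples. Of all tested genes 27.2% were lower and 28.6% were higher, and list shares near these are no result about the list. Crosslink, excision, and mismatch repair genes were lower in 12 of 28 members and higher in 9. The nuclease partner Ercc1 fell (log2 fold change -1.13 ± 0.10, adjusted p = 4.0e-09), Brca1 fell (-0.68 ± 0.22), and Fancl and Fancm of the crosslink repair pathway rose (0.80 ± 0.11 and 0.68 ± 0.09). The Brca1 call was lost without cisplatin replicate 1 (adjusted p = 0.052). Glutathione S-transferases were lower in 10 of 20 with 4 higher, Gstm6 falling (-1.12 ± 0.13) and Gsta4 rising (1.43 ± 0.17), in a family whose close copies make the counts uncertain. Among iron genes and metallothioneins, 4 were lower and 4 higher of 13. Mt1 and Mt2, which bind zinc and copper, had -1.33 ± 0.18 and -1.17 ± 0.27. Complement genes were lower in 7 of 19 and higher in 3, with C6 at -1.70 ± 0.29 and the regulator Cfi at 1.07 ± 0.21. With the fat marker covariate 5 were lower and 5 higher, and the median went from -0.56 to 0.001.

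Arginine, creatine, and polyamine genes were higher in 9 of 13 members, while Arg2, the mitochondrial arginase, fell (log2 fold change -1.82 ± 0.19, adjusted p = 3.5e-08). Acid-base and ammonia genes were higher in 7 of 14 with 4 lower: Car4, the brush border carbonic anhydrase, rose (log2 fold change 2.79 ± 0.16, adjusted p = 7.4e-12). Loop and distal salt transport genes were higher in 13 of 21, among them Pvalb (1.82 ± 0.43) and the calcium channel Trpv5 (1.66 ± 0.13). Renin-angiotensin genes were higher in 4 of 8, Mas1, an angiotensin receptor gene, having log2 fold change 2.75 ± 0.36, adjusted p = 9.0e-07. Glycolysis genes were higher in 7 of 15 and lower in 4, with hexokinase Hk2 at -1.47 ± 0.45 and Tpi1 at 0.73 ± 0.08, and Hk2 did not pass with the fat marker covariate (adjusted p = 0.68). Hypoxia response genes were lower in 6 of 13 and higher in 4, with adrenomedullin, Adm, at -1.86 ± 0.13 and Ankrd37 at 1.80 ± 0.24. Prostaglandin genes were higher in 4 of 13 and lower in 4, with the synthase Ptgds at 1.66 ± 0.22 and the prostaglandin carrier Slco2a1 at -1.04 ± 0.09. Aquaporins and the vasopressin receptor were higher in 3 of 9 and lower in 1, with Aqp1 of the proximal tubule at 0.94 ± 0.12. Hypertonicity genes had 2 higher and 2 lower of 10.

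Of the remaining cell type lists, endothelium markers were lower in 3 of 9 and higher in 1, Flt1, a VEGF receptor, having -0.65 ± 0.09. Of 6 B cell markers Ighm rose (log2 fold change 1.62 ± 0.55, adjusted p = 0.015) and Cd79b, a B cell receptor subunit, was lower. The Ighm call was lost without co-treated replicate 3 (adjusted p = 0.079). In the red blood cell list only the band 3 gene Slc4a1, which intercalated cells also express, passed (1 of 6). Muscle markers had 1 tested member, which did not pass. Of 4 tested adrenal markers 2 were higher, Star (log2 fold change 1.55 ± 0.58, adjusted p = 0.028) and Akr1b7 (log2 fold change 1.32 ± 0.41, adjusted p = 0.0095), which begin steroid synthesis and handle its aldehydes. In co-treated replicate 6 these genes stood at 25.04 and 10.1 CPM, against 1.41 to 2.64 and 1.31 to 2.12 CPM in the other 5 co-treated kidneys. Without that library the log2 fold change of Star was -0.06 (adjusted p = 0.82) and that of Akr1b7 was 0.46 (adjusted p = 0.046), and the Star call was also lost without cisplatin replicate 1 or 2 (0.050 and 0.057).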
